A study of Mus musculus with 6 samples.

Results

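Mitosis and G2/M genes are the genes a cell switches on late in its cycle, to enter mitosis, line up and separate its chromosomes and split into daughter cells. A list of 47 such genes was followed here through 6 RNA-seq libraries of mouse CD8+ T cells. The members were chosen by symbol as known genes of this phase, with earlier results of these data known. Each matched exactly 1 of the 55414 gene identifiers measured. All 47 passed the filter on low counts, so no member was lost. The cells carried the OT-I receptor, a transgenic receptor for a fragment of ovalbumin, and came from spleen and lymph nodes. N4 cells (2 libraries) had been stimulated 4 days earlier with N4, the natural ovalbumin fragment, together with antibodies to OX40 and 4-1BB. T4 cells (2 libraries) were taken at the same time after T4, a variant that triggers the receptor less strongly, with the same antibodies. Naive cells (2 libraries) are labelled as naive, with no stimulation given. Every group had the OT-I genotype, and no source used here gives the age of the mice, the sorting gate or whether the libraries of a group came from separate mice. The p-values therefore speak only to the spread among these libraries, and that spread may be technical.

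Progress into mitosis depends on Cdk1, a kinase that becomes active when it binds a B-type cyclin. Many genes of this phase are transcribed late in the cycle and silenced in resting cells by complexes that bind a short promoter element, the cell cycle genes homology region, often next to CCAAT boxes. Resting naive CD8+ T cells divide rarely, and an activated CD8+ T cell can pass through many divisions within days. In RNA from bulk samples, fewer cells of a type and less RNA per cell cannot be told apart, so a level below is an average over cycling and resting cells.

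The promoters of Cdk1, Ccnb1, Ccnb2, Cdc20, Plk1 and Aurka are shown because they are standard examples of this regulation and because their genes had higher levels in both stimulated groups than in naive cells. Each line gives the 250 bases before the transcription start in the RefSeq table of build GRCm38.p6, on the gene's own strand. Capitals mark CCAAT and the homology region elements TTTGAA and TTCGAA, each searched on both strands, and no marked element overlaps another.
Cdk1 (ENSMUSG00000019942.14), minus strand, chr10:69352913-69353162: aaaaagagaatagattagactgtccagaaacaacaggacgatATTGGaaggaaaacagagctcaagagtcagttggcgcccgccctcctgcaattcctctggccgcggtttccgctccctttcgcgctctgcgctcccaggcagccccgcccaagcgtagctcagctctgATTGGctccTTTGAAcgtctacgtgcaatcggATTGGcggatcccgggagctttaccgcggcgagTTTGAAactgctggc
Ccnb1 (ENSMUSG00000041431.17), minus strand, chr13:100786487-100786736: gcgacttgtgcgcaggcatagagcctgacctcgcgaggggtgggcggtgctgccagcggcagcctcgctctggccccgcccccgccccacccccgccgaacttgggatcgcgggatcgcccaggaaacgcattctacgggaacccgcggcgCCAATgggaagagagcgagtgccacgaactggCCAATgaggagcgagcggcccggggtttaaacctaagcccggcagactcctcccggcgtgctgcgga
Ccnb2 (ENSMUSG00000032218.8), minus strand, chr9:70421555-70421804: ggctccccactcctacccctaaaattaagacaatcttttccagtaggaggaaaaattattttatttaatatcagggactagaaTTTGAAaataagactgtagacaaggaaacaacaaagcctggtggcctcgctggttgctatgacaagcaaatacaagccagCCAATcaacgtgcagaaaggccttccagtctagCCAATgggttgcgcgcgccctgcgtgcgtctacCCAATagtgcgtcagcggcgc
Cdc20 (ENSMUSG00000006398.16), minus strand, chr4:118437344-118437593: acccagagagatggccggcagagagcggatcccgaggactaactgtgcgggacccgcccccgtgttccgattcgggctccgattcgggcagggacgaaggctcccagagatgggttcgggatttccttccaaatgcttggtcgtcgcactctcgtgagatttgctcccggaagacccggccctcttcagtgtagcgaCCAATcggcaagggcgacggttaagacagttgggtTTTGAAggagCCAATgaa
Plk1 (ENSMUSG00000030867.8), plus strand, chr7:122159185-122159434: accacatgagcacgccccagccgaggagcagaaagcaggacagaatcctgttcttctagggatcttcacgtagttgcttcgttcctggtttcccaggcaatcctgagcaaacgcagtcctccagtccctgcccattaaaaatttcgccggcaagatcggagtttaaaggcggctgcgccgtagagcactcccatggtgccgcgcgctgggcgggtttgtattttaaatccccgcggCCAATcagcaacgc
Aurka (ENSMUSG00000027496.16), minus strand, chr2:172370571-172370820: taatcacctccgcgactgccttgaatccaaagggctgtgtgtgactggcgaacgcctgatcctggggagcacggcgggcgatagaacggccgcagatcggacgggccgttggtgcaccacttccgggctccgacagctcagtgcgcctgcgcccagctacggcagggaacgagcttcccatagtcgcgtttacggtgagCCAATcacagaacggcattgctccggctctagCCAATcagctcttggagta

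All 6 promoters held CCAAT, with 3 matches each for Cdk1 and Ccnb2, 2 each for Ccnb1, Cdc20 and Aurka, and 1 for Plk1. TTTGAA was present in 3 of them, at 71 and 15 bases before the start of Cdk1, 167 bases before that of Ccnb2 and 18 bases before that of Cdc20. The table held 39 of the 47 members. CCAAT was found in 71.8% of these, in 59.5% of 37 DNA replication genes and in 37.5% of all 27025 genes in the table. TTTGAA or TTCGAA was found in 38.5% of members, 21.6% of replication genes and 19.6% of all genes. CCAAT together with either homology element was found in 33.3% of members, 16.2% of replication genes and 7.0% of all genes. A match describes the letters only and says nothing of binding.

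The libraries held 269033066 to 335968843 estimated counts, and 23003 genes passed the filter. Log2 CPM (estimated counts brought to a common library size with TMM factors) had a correlation across genes of 0.929 for the N4 pair, 0.952 for the T4 pair and 0.915 for the naive pair. T cell markers summed to 5245.2 and 6574.8 CPM in N4, 4526.4 and 4813 CPM in T4 and 6489.5 and 8003.5 CPM in naive libraries, and none of the 12, Cd8a and Cd3e included, was at 0 in any group. Markers of other cells differed between the groups. Summed erythroid markers (11 genes) ran from 386.7 to 446.8 CPM in N4, from 6704 to 8285.6 CPM in T4 and from 3541.6 to 9318.6 CPM in naive libraries. Neutrophil markers (8 genes) ran from 39.6 to 45.3 CPM in N4, from 6.23 to 12.2 in T4 and from 2411.9 to 24540.9 in naive libraries. Macrophage and monocyte markers (12 genes) ran from 7.94 to 9.99 CPM after N4, from 28.6 to 29.3 after T4 and from 364.6 to 978.9 in naive libraries. For plasma cells (6 genes) the sums ran from 38.8 to 40.7 CPM after N4, from 66.7 to 67.6 after T4 and from 523.1 to 2895.1 in naive libraries, and for B cells (10 genes) from 2.74 to 4.31 after N4, from 57.3 to 59.3 after T4 and from 26.2 to 66.6 in naive libraries. Dendritic cell sums (10 genes) were 66.4 to 88.9 CPM after N4, 553.7 to 570.4 after T4 and 1335.2 to 2103.6 in naive libraries. Natural killer cell sums (6 genes) were 770.9 to 996.7 CPM after N4, 297.3 to 316.8 after T4 and 409.1 to 1035.5 in naive libraries. In N4 against T4, 5 of these 6 genes had a negative log2 fold change and 1 a positive one (median -3.31). The higher natural killer sum in N4 than in T4 thus rests on 1 gene. In N4 against naive, 11 macrophage, 9 erythroid, 7 neutrophil, 6 B cell and 6 dendritic cell markers fell (edgeR, adjusted p below 0.05). So did 4 natural killer cell, 3 plasma cell and 2 T cell markers, against 7.18% of all genes. In N4 against T4, where 4.47% of all genes fell, 8 erythroid, 5 B cell and 4 macrophage markers did. The others were 3 dendritic cell, 3 natural killer cell and 1 neutrophil marker. Pax5, Blk, Fcer2a, Cr2, Siglech, Alas2, Adgre1, Cxcr2 and Tnfrsf17 were among the markers at 0 in both N4 libraries, and Cd5l was at 0 in both T4 libraries. Erythroid markers were lowest in N4, and in T4 they lay within the range of the naive libraries. The 47 mitotic genes below had positive log2 fold changes against naive in both stimulated groups. At an adjusted p below 0.05 (edgeR), 36 rose in N4 and 0 in T4, against 4.87% and 0.0826% of all genes. Dividing precursors of other blood cells also use mitotic genes, and the part of other cells in the levels below was not tested.

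Mitosis and G2/M genes were higher after N4 than in naive cells. Of the 47 members, 36 rose and 0 fell in N4 against naive (edgeR quasi-likelihood test, adjusted p below 0.05), against a background of 4.87% of all genes tested that rose and 12.1% that passed in either direction. All 47 log2 fold changes were positive, against 46.4% of all genes, with a median of 2.55, beside a median of -0.09 over all genes tested. The groups did not overlap for 45 members, against 26.5% of all genes that were higher in N4 without overlap. At an unadjusted p below 0.05, 44 members were higher and 0 lower, against 13.5% of all genes higher. With the DESeq2 Wald test 44 rose and 0 fell, against 11.2% of genes that rose, and with limma-voom 41 and 0, against 6.15%. The members that did not pass were Foxm1, Plk1, Bub3, Ttk, Ndc80, Kif20a, Kif23, Anln, Cdc20, Smc4 and Ncapd2. When 1 N4 library was left out, the number that rose was 23 without replicate 1 (1.22% of all genes) and 21 without replicate 2 (0.708%). It was 24 when the T4 libraries were left out of the fit (1.4% of all genes), and 25 when counts were scaled by library size alone (3.02%).

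In T4 against naive, all 47 log2 fold changes were again positive, against 50.1% of all genes, with a median of 1.26 beside 0 over all genes tested, but 0 members passed the threshold in either direction. In that comparison 27 of 23003 genes (0.117%) passed at all, and 0.0826% of genes rose. At an unadjusted p below 0.05, 37 members were higher, against 7.18% of all genes. With the DESeq2 Wald test 28 members rose, against 3.7% of genes, and with limma-voom 5 rose, against 0.548%. The T4 and naive libraries did not overlap for 45 members, against 26.2% of all genes higher without overlap. Both comparisons use the same naive libraries, so their values are given side by side and are not independent.

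The comparison of N4 with T4 asks how the response differed between peptides of unequal potency for the same receptor. Of the 47 members, 14 rose in N4 against T4 and 0 fell, against a background of 3.48% of genes that rose and 7.96% that passed in either direction. These were Ccna2, Plk4, Bub1, Mad2l1, Cenpf, Nuf2, Spc25, Birc5, Kif11, Hmmr, Nusap1, Ect2, Mki67 and Top2a, all of which also rose in N4 against naive. At an unadjusted p below 0.05, 24 were higher and 0 lower, against 13.4% of all genes higher. The DESeq2 Wald test called 23 higher and 0 lower, against 12% of genes higher, and limma-voom 20 and 0, against 5.68%. The median log2 fold change was 1.16, beside -0.20 over all genes, and 45 of the 47 values were positive, against 43.4% of all genes, Bub3 and Cdca3 being the exceptions. N4 lay above T4 without overlap for 39 members, against 27.6% of all genes, and below it for 1, Bub3. This comparison depended on the scaling: by library size alone the median of all genes moved to -1.05 and that of the members to 0.31, with 29 members positive and 2, Mad2l1 and Birc5, past the threshold. The members' count fell to 0 without either N4 library or without either T4 library, where 64 and 0 (N4) and 8 and 0 (T4) of all genes rose. It reached 24 without either naive library, where 8.84% and 8.97% of all genes rose.

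**Figure D1:**
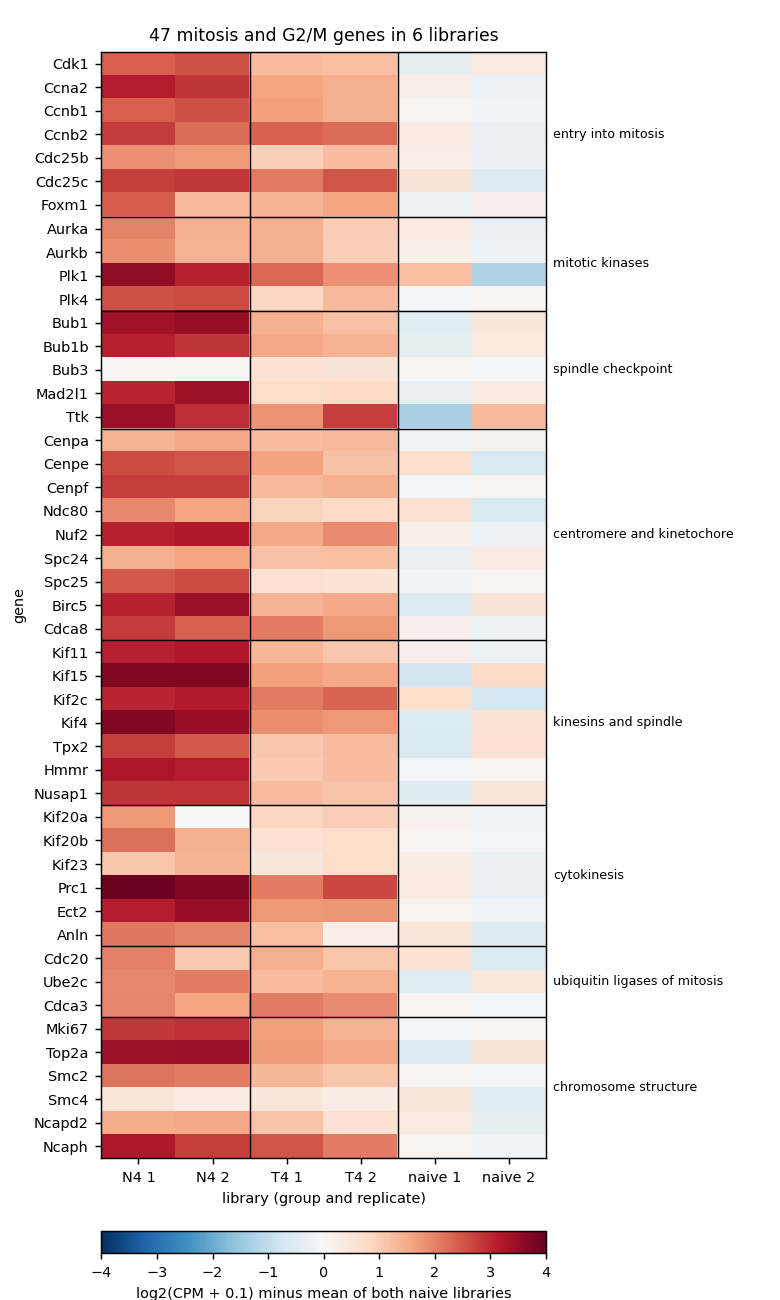
Level of each of the 47 genes (down the page, grouped by role) in each of the 6 libraries (across), as log2(CPM + 0.1) minus the mean of both naive libraries, with red above and blue below that mean. All libraries followed the order N4 above T4 above naive for 38 genes, and Bub3 and Smc4 stay near white throughout. How many of all genes follow that order was not counted.

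**Figure D2:**
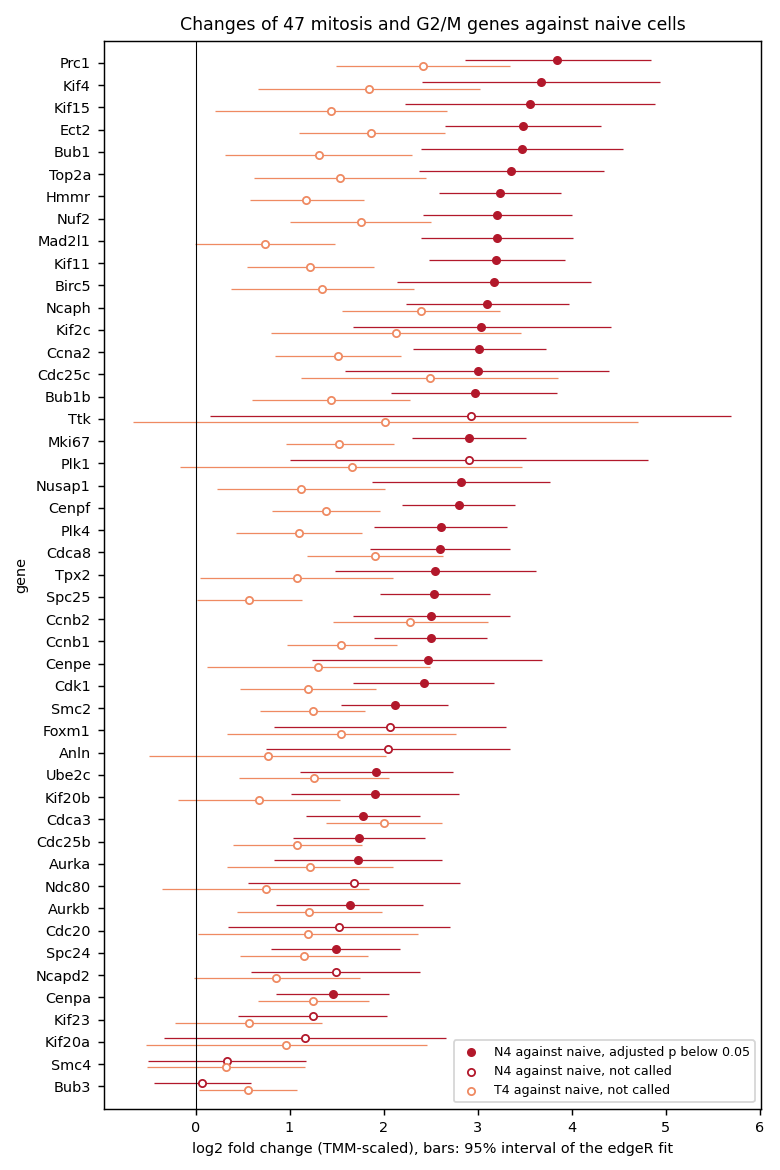
Log2 fold change of each gene in N4 against naive (dark red) and T4 against naive (orange), with the 95% interval of the edgeR fit as bars and filled points past the adjusted threshold. The N4 points run from 0.07 for Bub3 to 3.85 for Prc1, 36 of them filled, and no T4 point is filled.

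Entry into mitosis is set off by Cdk1, its cyclins and the phosphatases that switch it on. Of these 7 members, 6 rose in N4 against naive, and 1, Ccna2, rose in N4 against T4. Cdk1 had 226.9 and 253.6 CPM after N4, 105.1 and 99.6 CPM after T4, and 34 and 55.2 CPM in naive libraries. The 3 groups did not overlap, and Cdk1 rose 5.39-fold in N4 against naive (log2 fold change 2.43, SE 0.31, adjusted p = 0.012), while N4 against T4 missed the threshold (1.23, SE 0.30, adjusted p = 0.058). Ccna2, cyclin A2 of S and G2 phase, had 61.3 and 50.4 CPM after N4, 20.7 and 18.9 after T4, and 8.06 and 5.72 in naive libraries. It rose 8.1-fold in N4 against naive (adjusted p = 0.0081) and 2.82-fold in N4 against T4 (adjusted p = 0.035), the largest changes of this role in both comparisons. Part of its exons overlap the opposite-strand gene Exosc9, from which the library kit cannot separate it.

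The B-type cyclins differed from each other in how T4 compared with N4. Ccnb1 had 51.7 and 58.5 CPM after N4, 30.3 and 26.9 after T4, and 10.6 and 8.83 in naive libraries, so T4 lay between the other groups. Ccnb2 had 59.8 and 40.7 CPM after N4, 44.9 and 40.9 after T4, and 10.7 and 6.88 in naive libraries, so N4 and T4 overlapped and both stood clear of naive. Both cyclins rose in N4 against naive, by 2.50 (SE 0.25, adjusted p = 0.0084) and 2.51 (SE 0.34, adjusted p = 0.013) on the log2 scale. In N4 against T4 the log2 fold change of Ccnb2 was 0.23 with a 95% interval of -0.56 to 1.01, and it was -0.59 under library size scaling. Pseudogenes of both are annotated, with 1092 counts against 52920 for Ccnb1 and 503 against 61941 for Ccnb2.

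The Cdk1-activating phosphatases were also higher after N4. Cdc25b had 50.6 and 46.9 CPM after N4, 27.9 and 34.1 after T4, and 17.4 and 11.8 in naive libraries, a log2 fold change of 1.74 in N4 against naive (adjusted p = 0.02) and the smallest of this role. Cdc25c was scarcer, at 2.95 ± 0.111 CPM after N4, 2.08 ± 0.451 after T4 and 0.368 ± 0.226 in naive cells (SD, n = 2 each), and rose 7.98-fold in N4 against naive (adjusted p = 0.028). Exons of Cdc25b and Cdc25c overlap the opposite-strand genes Spef1 (1090 counts) and Gm3550 (1414 counts). Foxm1, a transcription factor of G2/M genes, had 5.32 and 2.35 CPM after N4, 2.47 and 2.88 after T4, and 0.768 and 1.06 in naive libraries. Its N4 libraries differed by more than its N4 and T4 means did, and it missed the threshold in N4 against naive (log2 fold change 2.07, SE 0.51, adjusted p = 0.051).

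Of the 4 mitotic kinases, Aurka, Aurkb and Plk4 rose in N4 against naive, and Plk4 alone passed in N4 against T4. Plk1, which acts from mitotic entry to cytokinesis, had 48.1 and 34.4 CPM after N4, 20.1 and 14.5 after T4, and 9.29 and 1.68 in naive libraries. Its log2 fold change of 2.91 in N4 against naive was the largest of this role, yet the naive libraries lay far apart and it did not pass (SE 0.78, adjusted p = 0.064). Plk4, the kinase that starts centriole duplication, had 21.1 and 21.9 CPM after N4, 6.29 and 8.88 after T4, and 3.36 and 3.71 in naive libraries. It rose 6.09-fold in N4 against naive (adjusted p = 0.0094) and 2.84-fold in N4 against T4 (adjusted p = 0.035). Aurkb, the kinase of the chromosomal passenger complex, had 34.5 and 24.6 CPM after N4, 25.2 and 18.8 after T4, and 11 and 7.97 in naive libraries. N4 and T4 overlapped for Aurkb, which rose 3.11-fold in N4 against naive (adjusted p = 0.03). Aurka, the kinase of spindle poles, rose 3.31-fold in N4 against naive (adjusted p = 0.036) and had a log2 fold change of 0.51 in N4 against T4, which was -0.32 under library size scaling.

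The spindle checkpoint holds chromosome separation until every kinetochore is attached, and its 5 members split. Bub1, Bub1b and Mad2l1 rose in N4 against naive, Bub1 and Mad2l1 also rose in N4 against T4, and Bub3 and Ttk passed in no comparison. Mad2l1, whose product is the diffusible inhibitor of the checkpoint, had 410.3 and 520.7 CPM after N4, 82.6 and 85.6 after T4, and 38.9 and 62 in naive libraries. It rose 9.23-fold in N4 against naive (adjusted p = 0.0089) and 5.54-fold in N4 against T4 (log2 fold change 2.47, SE 0.32, adjusted p = 0.023), the largest value of all 47 members in that comparison.

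Bub1, a kinase that recruits checkpoint proteins to kinetochores, had 10.9 and 12.1 CPM after N4, 2.77 and 2.35 after T4, and 0.683 and 1.39 in naive libraries. It rose 11.1-fold in N4 against naive (adjusted p = 0.012) and 4.5-fold in N4 against T4 (adjusted p = 0.038). Bub3, a partner of Bub1 and Bub1b, had 103.6 and 105 CPM after N4, 149.7 and 142.9 after T4, and 101.7 and 96.7 in naive libraries. It thus stood highest in T4, with N4 close to naive: the log2 fold change was 0.07 in N4 against naive (95% interval -0.44 to 0.59, turning to -0.49 under library size scaling) and -0.49 in N4 against T4 (SE 0.21, adjusted p = 0.19). The within-library ratio of Mad2l1 to Bub3 was 3.96 and 4.96 after N4, 0.552 and 0.599 after T4, and 0.382 and 0.642 in naive libraries. No scaling between libraries can alter it. Mad2l1 and Bub3 had the largest and the smallest N4 against T4 value of all 47 members. Their ratio was therefore bound to differ between N4 and T4. Ttk, the kinase known as Mps1 that starts checkpoint signalling, had 4.52 and 3.19 CPM after N4, 1.36 and 2.76 after T4, and 0.0706 and 0.949 in naive libraries, with SE 1.14 on its log2 fold change of 2.93 in N4 against naive.

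Centromere and kinetochore genes rose broadly in N4. Of 9 members, 8 rose in N4 against naive, all but Ndc80, and Cenpf, Nuf2, Spc25 and Birc5 rose in N4 against T4. Nuf2, a subunit of the Ndc80 complex that grips microtubules, had 14.3 and 15.5 CPM after N4, 4.78 and 6.11 after T4, and 1.87 and 1.34 in naive libraries, a 9.26-fold rise in N4 against naive (adjusted p = 0.0086). Spc25 of the same complex had 86.8 and 97.3 CPM after N4, 24.2 and 22.9 after T4, and 14.4 and 17.2 in naive libraries. Its T4 level was closer to naive than to N4, with a log2 fold change of 1.97 in N4 against T4 (SE 0.23, adjusted p = 0.021) and 0.57 in T4 against naive (SE 0.23, adjusted p = 0.33). The remaining subunits differed: Spc24 rose 2.81-fold in N4 against naive (adjusted p = 0.027) but had a log2 fold change of 0.34 in N4 against T4 (-0.52 under library size scaling), and Ndc80 itself missed the threshold in N4 against naive (1.69, SE 0.46, adjusted p = 0.067).

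Birc5, which encodes survivin of the chromosomal passenger complex, had the highest mean level of all members in each group. It had 1207.6 and 1559.7 CPM after N4, 372.5 and 406.5 after T4, and 99.4 and 206.4 in naive libraries. On a length-scaled level, counts divided by transcript length and brought to the same total in each library without TMM scaling, it averaged 852.8 after N4, 486.8 after T4 and 131.9 in naive cells, against 0.626, 0.795 and 0.182 for Foxm1, the lowest member in N4. Birc5 rose 9.05-fold in N4 against naive (adjusted p = 0.013) and 3.55-fold in N4 against T4 (adjusted p = 0.049), and it held 32.1% and 37% of the members' counts after N4, 20.7% and 22.5% after T4, and 14.2% and 23.2% in naive libraries. Cenpa, the histone variant that marks centromeres, had 286.9 and 315.2 CPM after N4, 255.6 and 266 after T4, and 95.7 and 122.9 in naive libraries. Its rise of 2.75-fold in N4 against naive (adjusted p = 0.021) was the smallest of this role, and N4 and T4 lay close (log2 fold change 0.21, 95% interval -0.38 to 0.80, and -0.65 under library size scaling). The within-library ratio of Birc5 to Cenpa was 4.21 and 4.95 after N4, 1.46 and 1.53 after T4, and 1.04 and 1.68 in naive libraries. Birc5 and Cenpa were picked by their values in these data, so this ratio is a description and not a test.

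Kinesins and spindle proteins were the only role in which every member rose in N4 against naive (7 of 7), with log2 fold changes from 2.55 to 3.67, and Kif11, Hmmr and Nusap1 rose in N4 against T4. Exons of Nusap1, whose adjusted p there was 0.049, overlap the opposite-strand gene Oip5, which had 63865 counts and itself rose in N4 against T4 (log2 fold change 2.15, SE 0.36, adjusted p = 0.031), so the values of Nusap1 are uncertain. Kif4, a chromosome-bound motor, had 9.14 and 7.77 CPM after N4, 2.5 and 2.27 after T4, and 0.383 and 0.945 in naive libraries, a 12.8-fold rise in N4 against naive (adjusted p = 0.015). Its exons overlap the opposite-strand gene Pdzd11, which had 90117 counts over all libraries against 5902 for Kif4, so its values are uncertain. Kif15, a motor that helps keep spindle poles apart, had 32.8 and 32.4 CPM after N4, 7.76 and 7.22 after T4, and 1.38 and 4.15 in naive libraries. It rose 11.8-fold in N4 against naive (adjusted p = 0.017) and had the largest N4 against T4 value of this role, which missed the threshold (log2 fold change 2.12, SE 0.51, adjusted p = 0.059).

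Kif11, the motor that pushes spindle poles apart, had log2 fold changes of 3.20 in N4 against naive (adjusted p = 0.0079) and 1.98 in N4 against T4 (adjusted p = 0.025). Hmmr, a spindle-associated protein, gave 3.24 (adjusted p = 0.0071) and 2.06 (adjusted p = 0.022) in the same comparisons. Tpx2, an activator of Aurora A on the spindle, had 24.5 and 19.7 CPM after N4, 7.41 and 8.52 after T4, and 2.32 and 5.24 in naive libraries, the smallest rise of the role at 5.85-fold in N4 against naive (adjusted p = 0.022). Kif2c, a motor that takes microtubules apart, had 8.46 and 9.23 CPM after N4, 4.31 and 5.09 after T4, and 1.61 and 0.533 in naive libraries. All 3 groups stood apart for each of the 7 genes, with N4 highest and naive lowest. The share of all genes with that order was not counted.

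Of the 6 cytokinesis genes, Prc1, Ect2 and Kif20b rose in N4 against naive, and Ect2 also in N4 against T4. Prc1, which bundles the microtubules of the central spindle, had 23.5 and 20.3 CPM after N4, 6.35 and 9.82 after T4, and 1.89 and 1.14 in naive libraries. Its 14.5-fold rise in N4 against naive (log2 fold change 3.85, SE 0.41, adjusted p = 0.0089) was the largest of all 47 members, and its exons overlap the opposite-strand gene Rccd1. Ect2, the exchange factor that activates RhoA at the division plane, had 7.45 and 9.3 CPM after N4, 2.7 and 2.81 after T4, and 0.829 and 0.673 in naive libraries, 11.1-fold higher in N4 than in naive (adjusted p = 0.0082) and 3.04-fold higher than in T4 (adjusted p = 0.039). Kif20a, a motor of the central spindle, had 5.02 and 1.44 CPM after N4, 2.69 and 2.93 after T4, and 1.63 and 1.25 in naive libraries. Its exons overlap the opposite-strand gene Cdc23, with 16646 counts. Its levels overlapped between N4 and both other groups, and without N4 replicate 1 its log2 fold change in N4 against naive was -0.01, against 1.16 with it. Kif23 and Anln, a central spindle motor and a scaffold of the contractile ring, had positive values that missed the threshold (1.25 and 2.05, adjusted p = 0.06 and 0.059).

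Genes of mitotic protein breakdown had the smallest median difference between N4 and T4 of the 8 roles, 0.33 on the log2 scale. Of the 3 genes, 2 rose in N4 against naive, and 0 of 3 rose or fell in N4 against T4 at an adjusted or an unadjusted p below 0.05. Ube2c, the ubiquitin-conjugating enzyme of the anaphase-promoting complex, had 312.4 and 343.6 CPM after N4, 195.6 and 218.6 after T4, and 62.6 and 110.3 in naive libraries, a 3.8-fold rise in N4 against naive (adjusted p = 0.022). Cdca3, linked to the breakdown of the mitotic brake Wee1, had 46.2 and 35.7 CPM after N4, 50.8 and 44.8 after T4, and 12.4 and 11.5 in naive libraries. Its N4 and T4 values overlapped with the T4 mean higher (log2 fold change -0.22 in N4 against T4, SE 0.24), and its value of 2.00 in T4 against naive (SE 0.25) had the lowest adjusted p of all members there, 0.062. Cdc20, the activator of the anaphase-promoting complex, had 48.5 and 24.6 CPM after N4, 32.6 and 25.6 after T4, and 17.2 and 8.13 in naive libraries. The N4 libraries of Cdc20 spanned those of T4, it passed in no comparison (adjusted p = 0.094 in N4 against naive), and its exons overlap the opposite-strand gene Elovl1, with 199907 counts.

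Of 6 genes of chromosome structure, 4 rose in N4 against naive and 2, Top2a and Mki67, rose in N4 against T4. Top2a, the topoisomerase that untangles chromosomes, had 98.9 and 102.9 CPM after N4, 30.6 and 26.4 after T4, and 6.41 and 13.3 in naive libraries, with rises of 10.3-fold in N4 against naive (adjusted p = 0.011) and 3.54-fold in N4 against T4 (adjusted p = 0.044). Mki67, the Ki-67 coat protein of mitotic chromosomes, had 32.4 and 35 CPM after N4, 14.1 and 11.9 after T4, and 4.37 and 4.62 in naive libraries. It rose 2.59-fold in N4 against T4 (log2 fold change 1.37, SE 0.23, adjusted p = 0.031). Condensin, the ring complex that compacts chromosomes, was uneven: Smc2 and Ncaph rose in N4 against naive, 4.34-fold (adjusted p = 0.0094) and 8.58-fold (adjusted p = 0.0097), and Smc4 and Ncapd2 did not pass. Smc4 had 41.6 and 37.5 CPM after N4, 42 and 36.7 after T4, and 41.3 and 21.7 in naive libraries. All groups overlapped for Smc4, with a 95% interval of -0.51 to 1.17 for its log2 fold change of 0.33 in N4 against naive, which was -0.31 under library size scaling.

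Summed over the 47 genes, the level was 3766.4 and 4210.6 CPM after N4, 1796.3 and 1807.4 CPM after T4, and 699.5 and 889.4 CPM in naive libraries. The sum in N4 was 5.02 times that in naive and 2.21 times that in T4, and the sum in T4 was 2.27 times that in naive. Scaled to transcript length and without TMM, the N4 sum was 1.13 times that of T4, and scaled by library size alone 1.22 times. Set against the summed T cell markers of the same library, the summed members stood at 0.718 and 0.64 after N4, 0.397 and 0.376 after T4, and 0.108 and 0.111 in naive libraries. This order does not use a scaling between libraries but takes in any change of the T cell markers. The CPM sum of these markers in N4 was 0.816 times that in naive and 1.27 times that in T4. In T4 it was 0.644 times that in naive.

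Other cell cycle genes were read from lists chosen with earlier results of these data known. Of 69 other mitotic genes, 49 rose and 0 fell in N4 against naive, and 14 rose and 1 fell in N4 against T4, with medians of 2.28 and 1.17 on the log2 scale. Over all genes tested, 4.87% rose and 7.18% fell in N4 against naive, and 3.48% rose and 4.47% fell in N4 against T4. Shcbp1, a midbody protein gene, averaged 69.9 ± 16 CPM after N4, 14.2 ± 0.624 after T4 and 5.34 ± 0.771 in naive cells (SD, n = 2 each). Cep55, which acts in the final cut between daughter cells, rose by 3.88 on the log2 scale in N4 against naive (SE 0.32, adjusted p = 0.0071), and Depdc1a by 3.59 in N4 against T4 (SE 0.39, adjusted p = 0.018). Of 46 DNA replication genes, 27 rose in N4 against naive and 5 in N4 against T4, with medians of 1.56 and 0.60, and 0 fell in either. Ccne2, cyclin E2 of the G1/S transition, had 41.6 and 55.8 CPM after N4, 4.82 and 6.54 after T4, and 2.56 and 4.82 in naive libraries. The ratio of the summed members to the summed replication genes was 1.38 ± 0.103 after N4, 1.25 ± 0.0716 after T4 and 1.02 ± 0.0833 in naive cells (SD, n = 2 each). Both stimulated groups lay above naive, and N4 and T4 differed by about their spread. Birc5 weighs on this ratio: without it the members' sum in N4 was 1.84 times that in T4, against 2 times for the replication genes. Over naive, the members' sum without Birc5 was 4.06 times in N4 and 2.2 times in T4, against 3.71 and 1.86 for the replication genes.

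Some genes of complexes that also act outside mitosis rose too, beside 4.87% of all genes in N4 against naive and 3.48% in N4 against T4. At an unadjusted p below 0.05, 13.4% of all genes were higher in N4 against T4. Of 15 subunits of the anaphase-promoting complex, 3 rose in N4 against naive and 0 in N4 against T4 (3 at an unadjusted p below 0.05). Of 13 cohesin genes, 4 rose in N4 against naive, and 2, Rad21 and Esco2, also in N4 against T4. Esco2, which fixes cohesin on replicated DNA, rose by 3.26 on the log2 scale in N4 against naive (SE 0.34, adjusted p = 0.0089). Of 17 genes of the DREAM, MuvB and E2F regulators, 6 rose in N4 against naive and 0 in N4 against T4 (5 higher and 2 lower at an unadjusted p below 0.05), and E2f2 and E2f3, activators of S phase genes, were 2.61 and 2.28 higher on the log2 scale in N4 than in naive cells. In T4 against naive, 0 genes of any of these lists passed with edgeR, while at an unadjusted p below 0.05 the counts were 37 of 69, 27 of 46, 1 of 15, 3 of 13 and 6 of 17 in the same order. All of these were higher in T4, against 7.18% of all genes, a share that the 1 of 15 does not exceed.

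Among genes that restrain the cycle, a few fell. Of 18 such genes, 0 rose and 3 fell in N4 against naive, where 7.18% of all genes fell. At an unadjusted p below 0.05, 9 of the 18 differed, 1 of them higher, against 13.5% of all genes higher. The share of all genes lower at that p was not counted, so those that were lower have no background here. Those that fell included Btg1, an antiproliferative gene, with 237 and 271.3 CPM after N4, 410.9 and 424.7 after T4, and 1121.7 and 1416.5 in naive libraries. Btg2, its close relative, had a log2 fold change of -1.25 in N4 against naive (SE 0.22, adjusted p = 0.023) and of -1.10 in N4 against T4 (SE 0.22, adjusted p = 0.041). In N4 against T4, where 4.47% of all genes fell and 3.48% rose, 2 of the 18 fell and 1, Ccng1, rose, with 57.5 and 72.7 CPM after N4, 23.5 and 20.2 after T4, and 28.2 and 37 in naive libraries.

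**Figure D3:**
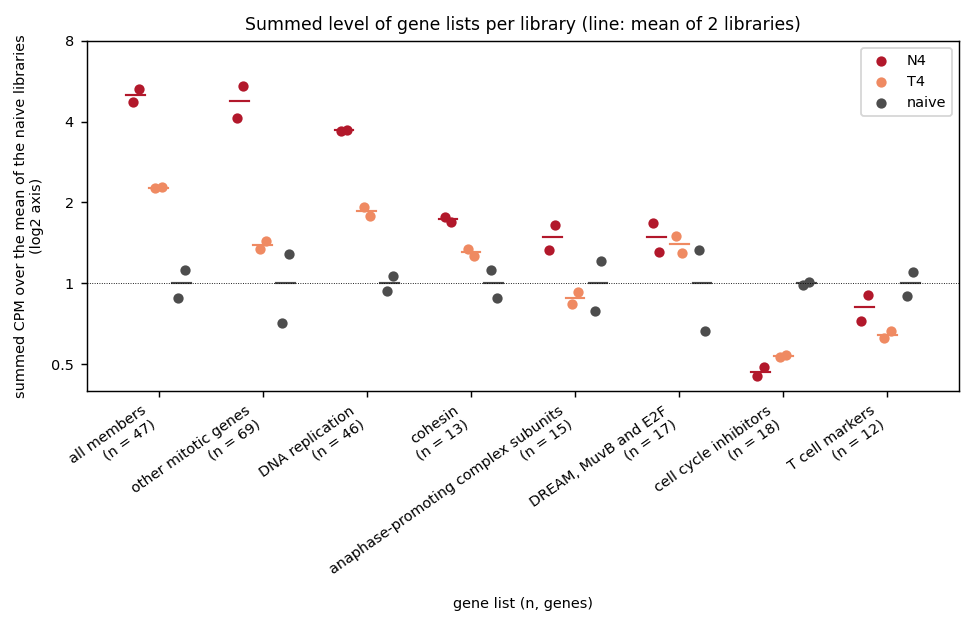
Summed CPM of each gene list in each library over the mean of both naive libraries (log2 axis), N4 in dark red, T4 in orange and naive in grey, with the group mean as a line. The 47 mitosis genes averaged 5.02 times naive in N4 and 2.27 times in T4, and the summed inhibitors lay below naive in both. Btg1 weighs on that sum, and 5 of the 18 inhibitors had a positive log2 fold change in each comparison with naive.

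The N4 against T4 differences varied with the GC content of the genes. Across the 47 members the log2 fold change in N4 against T4 had a Pearson correlation of -0.53 with GC content, across genes that share libraries and are not independent, beside -0.15 across 22732 genes with a GC value. The 24 members of lower GC content had a median of 1.47, with 12 past the threshold, and the 23 of higher GC content a median of 0.63, with 2 past it. In T4 against naive the correlation was 0.19 and in N4 against naive -0.31. With a GC offset per library in the fit, the median in N4 against T4 was 0.88 and 5 members rose (Mad2l1, Cenpf, Spc25, Hmmr and Mki67). What part GC content had in the difference between N4 and T4 was not tested beyond this.

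**Figure D4:**
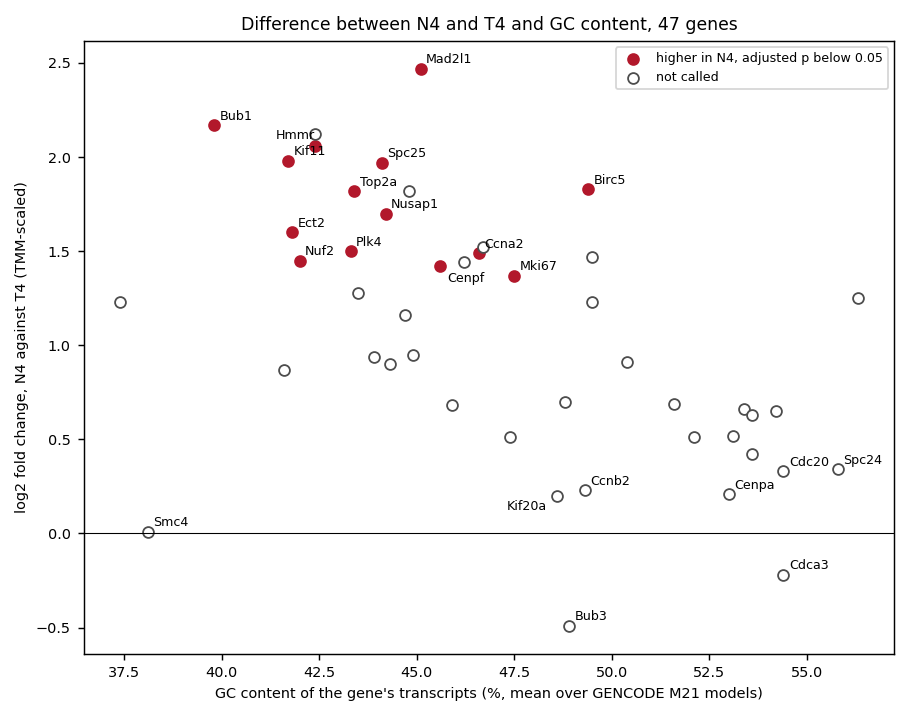
Log2 fold change in N4 against T4 of each of the 47 genes (vertical) against the mean GC content of its transcripts (horizontal, percent), with filled points for the 14 genes past the threshold. Mad2l1, at 45.1% GC, lies highest, Smc4, at 38.1%, lies near 0 among genes of low GC content, and Cdca3, at 54.4%, lies below 0.

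Transcript use could be tested for 40 members with diffSpliceDGE, and 1, Ect2, passed in N4 against T4 (adjusted p = 0.0029, against 1.04% of 10393 genes) and in T4 against naive (adjusted p = 0.015, against 0.26% of genes). In N4 against naive 0 members passed (4 at an unadjusted p below 0.05), against 0.808% of genes, and Ect2 had an adjusted p of 0.3. Its annotated coding transcripts differ in a 93-base exon of 31 codons, exon 4 of Ect2-203, on the minus strand of chromosome 3 in GRCm38. This exon was looked at after the transcript test of Ect2 had been seen. It is shown in capitals between the last 15 bases of the exon before it and the first 15 of the exon after it, because its use set T4 apart.
Ect2 exon, chr3:27148795-27148887: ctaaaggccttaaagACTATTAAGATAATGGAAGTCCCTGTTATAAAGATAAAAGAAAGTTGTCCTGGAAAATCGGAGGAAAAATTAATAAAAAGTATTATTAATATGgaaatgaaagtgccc

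Of the Ect2 counts that span this exon, transcripts with it held 72% in N4 replicate 1 (exact 95% binomial interval 69.7 to 74.1) and 78.7% in replicate 2 (76.8 to 80.5). In T4 the share was 0.675% in replicate 1 (0.272 to 1.39) and 0.282% in replicate 2 (0.0583 to 0.823). In naive cells it was 51.2% in replicate 1 (46 to 56.5) and 33.3% in replicate 2 (26.3 to 41). The intervals treat estimated counts as if they were reads, so they may be too narrow. They also leave out differences between libraries. Of the spanning counts, 1176 of 1634 and 1483 of 1885 carried the exon after N4, 7 of 1037 and 3 of 1062 after T4, and 186 of 363 and 56 of 168 in naive libraries. The T4 libraries stood apart from the other 4, in which the exon was common. Transcripts without it include Ect2-212, annotated for nonsense-mediated decay and not as coding. It held 22.7% and 18.3% of Ect2 counts after N4, 36.2% and 25.8% after T4, and 36.5% and 58.3% in naive libraries. In naive libraries the coding transcripts Ect2-202 (9.62% and 5.95%) and Ect2-207 (2.47% and 1.79%) lacked the exon, beside 50% and 33.3% for Ect2-203. A share among coding transcripts alone was not taken. The test on transcripts lost its call when either T4 library was left out (adjusted p = 0.35 and 0.32 in N4 against T4, and 0.81 and 0.77 in T4 against naive), and it ranged from 0.006 to 0.025 over the other alternatives in N4 against T4. With the replicate number as a block it was 0.06 in T4 against naive. Counts per transcript are estimates, and Ect2-203 itself was listed at 0 in both T4 libraries.

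**Figure D5:**
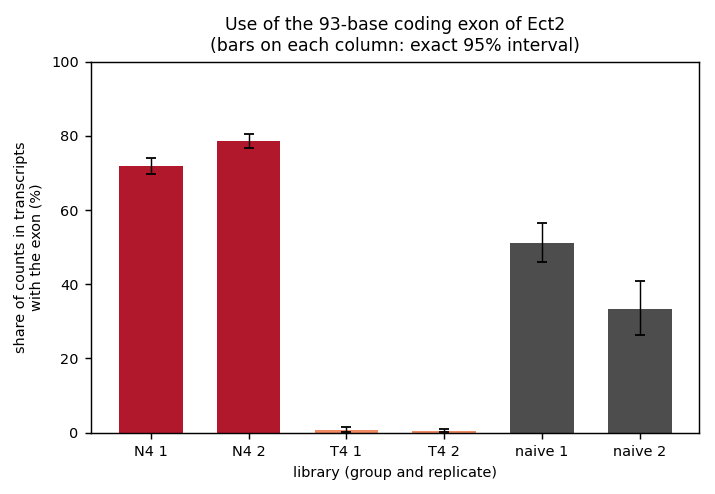
Share of Ect2 counts in transcripts with the 93-base coding exon, in percent of the counts that span it, in each library, with exact 95% intervals. The N4 columns stand at 72% and 78.7%, the T4 columns at 0.675% and 0.282%, and the naive columns at 51.2% and 33.3%.

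Transcripts annotated for nonsense-mediated decay, the pathway that removes RNAs with early stop codons, held 5.89% and 5.23% of all counts of the members after N4, 11.5% and 11% after T4, and 12% and 12.8% in naive libraries. N4 thus lay below the other groups, which were close. Those of Cenpa alone made up 5.16% and 4.89% of the members' counts after N4, 10.4% and 10.1% after T4, and 9.62% and 10.4% in naive libraries. Within Cenpa, the decay-annotated transcript Cenpa-202 held 59.8% and 60.6% of its counts after N4, 64.1% and 62.3% after T4, and 62.3% and 68.6% in naive libraries, close in all groups. Over all protein-coding genes the share was 2.13% and 1.6% after N4, 3.19% and 1.55% after T4, and 1.7% and 1.25% in naive libraries, where the groups overlapped.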

How the data were processed

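Polyadenylated RNA of 6 libraries in 3 groups of 2 (N4, T4, naive) was measured (miRNeasy Micro extraction, SMARTer ultra-low libraries, per the labels' protocols). Named without roles in the submitters' processing notes are DESeq2 1.30.1, R 4.0.5, StringTie 2.1.0, SAMtools 1.9, STAR 2.7.1a and build mm39. Annotation release and read length: not given in the sources used here. Estimated counts per gene and per transcript were deposited by the authors as whole numbers, not normalized, so they were not rounded. Their scale may not be that of reads, so totals are not called reads, and binomial intervals taken on them may be too narrow. No column of values went unused.

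Symbols were found for 52081 of 55414 gene identifiers through GENCODE M21, whose GRCm38 models also gave lengths, GC content, transcript types and all coordinates of exons. Promoters came from RefSeq on GRCm38.p6. Neither is the authors' build, so no coordinate of theirs was used. The kit does not mark strand, so genes whose exons overlap on opposite strands are uncertain.

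Genes were tested with edgeR 4.0.16 in R 4.3.3: filterByExpr (23003 genes kept), TMM scaling (factors 0.821 and 0.641 for N4, 1.36 and 1.28 for T4, 1.31 and 0.833 for naive), and a quasi-likelihood test of contrasts of group means, fitted to all 6 libraries with a shared spread (common biological coefficient of variation 0.67). P-values were adjusted by Benjamini-Hochberg over all genes tested, with a threshold of 0.05. CPM values use TMM-scaled library sizes. Transcript use was tested with edgeR's diffSpliceDGE with Simes p-values per gene. With 2 libraries a group, the smallest p of a two-sided exact permutation test is 0.33, so none is given. The procedures were tested on simulated counts. Alternatives were DESeq2 1.42.0, limma-voom (limma 3.58.1), other scalings and filters, a GC offset, a fit of the compared groups only, a minimum fold change of 1.5, the replicate number as a block and each library left out. A sum without Birc5 was chosen after seeing the data.

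The members and lists were chosen with earlier results of these data known. Values in every library are given for Mki67, Top2a, Cdk1, Ccnb1, Ccnb2, Cdc20, Foxm1 and, in each role, for the members with the largest and smallest change in N4 against naive and in N4 against T4; of each other pathway list at most 4 genes are named, by smallest p. Birc5 was added after its values were seen. Of the pathway lists, 1 gene, Lin54, had no identifier and was not used. Replicates differed by far more than sampling noise (chi-square per degree of freedom 129.2 to 2321.6), so none was counted as a duplicate. Libraries of the same number did not deviate together (correlations 0.02, 0.08 and 0.04), and the main fit does not pair them. With 2 libraries a group, this cannot settle whether the numbers mark pairs. With the replicate number as a block, 1642 genes rose in N4 against naive and 1714 in N4 against T4, against 1120 and 801 in the main fit.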

Additional observations from a re-analysis of the deposited data

How the results depend on the processing

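The number of members that rose in N4 against naive stayed within 1.5 times of 36 under every alternative except leaving out 1 library, where it ran from 21 to 39. The members' median there was 2.03 under library size scaling, 2.9 with scaling to T cell markers, 2.42 with no filter, 2.44 in the fit of the 2 groups, 2.49 with the GC offset and 2.6 with the replicate block, and from 2.44 to 2.69 with 1 library left out. In T4 against naive, 0 members passed; 1 did under library size scaling (median 1.6), 5 with T cell marker scaling (median 1.89), 17 with no filter, 10 with the stricter filter, 28 with the DESeq2 Wald test, 5 with limma-voom, 4 with the replicate block and 0 to 8 with 1 library left out (medians 1.23 to 1.44), and the median was 1.39 with the GC offset. In N4 against T4, 14 passed; 2 did under library size scaling (median 0.31), 7 with T cell marker scaling (median 0.84), 5 with the GC offset (median 0.88), 4 with the minimum fold change, 23 with DESeq2, 26 in the fit of the 2 groups and 0 to 24 with 1 library left out (medians 0.99 to 1.16), and the median was 1.02 with no filter. With the replicate block, 41 members rose in N4 against naive and 19 in N4 against T4.

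The summed level in N4 over naive was 3.5 by library size, 6.21 by T cell markers, 3.61 length-scaled and 4.06 without Birc5; in T4 over naive 2.88, 3.53 and 3.2 by the first 3; and in N4 over T4 1.22, 1.76, 1.13 and 1.84. The length-scaled ratio of members, Birc5 included, to replication genes stood at 1.76 after N4, 1.6 after T4 and 1.21 in naive cells. For transcript use, leaving out 1 library gave 0 to 1 members in each comparison with naive and 0 to 2 in N4 against T4, and 0 in T4 against naive with the replicate block.

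The sign of single members turned as follows, none of them past the threshold. Under library size scaling, in N4 against naive, Bub3 was at -0.49 and Smc4 at -0.31, and in N4 against T4 Ccnb2 was at -0.59, Cdc25b -0.19, Cdc25c -0.34, Foxm1 -0.27, Aurka -0.32, Aurkb -0.41, Cenpa -0.65, Spc24 -0.52, Cdca8 -0.15, Kif20a -0.56, Kif23 -0.19, Cdc20 -0.47, Ube2c -0.2, Smc4 -0.84, Ncapd2 -0.24 and Ncaph -0.14. In N4 against T4 with T cell marker scaling, Ccnb2 was at -0.07, Cenpa -0.12, Kif20a -0.03 and Smc4 -0.31. In N4 against naive, Bub3 was at -0.07 with no filter and -0.03 in the fit of the 2 groups, and Smc4 at -0.17 with the GC offset. In N4 against T4, Smc4 was at -0.13 with no filter, -0.03 in the fit of the 2 groups and -0.7 with the GC offset, Cdca3 at 0.05 with the GC offset, and Kif20a at -0.05 with limma-voom and -0.01 with the replicate block. With 1 library left out, Bub3 ran from -0.03 to 0.08, Smc4 from -0.07 to 0.73 and Kif20a from -0.01 to 1.8 in N4 against naive. Smc4 ran from -0.07 to 0.77 in T4 against naive. The values in N4 against T4 ran from -0.08 to 0.48 for Ccnb2, from -0.19 to 0.99 for Foxm1, from -0.97 to 0.83 for Kif20a, from -0.24 to 0.73 for Cdc20 and from -0.12 to 0.08 for Smc4. The cause of these moves was not tested.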
